A study of Mus musculus with 12 samples.

Results

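The gene group described here was 10 of the 55487 genes in the count table, chosen by name for their part in renal phosphate transport and in the hormones that control it. They were the sodium-phosphate carriers Slc34a1, Slc34a3, Slc20a1 and Slc20a2, the brush border scaffold Slc9a3r1, the FGF23 co-receptor Klotho (Kl), the parathyroid hormone receptor Pth1r, and the vitamin D genes Cyp27b1, Cyp24a1 and Vdr. All 10 had enough counts to be tested in every comparison, and their lowest count in any library was 114, for Slc34a3 in PT-KO+I/R library 2 (exact Poisson 95% interval 94.0 to 136.9, covering counting error only).

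RNA-seq read counts came from kidney cortex of 12 mice on a mixed C57BL/6 background, aged 6 to 8 weeks, with 3 libraries in each of 4 groups. Ctrl mice carried floxed alleles of ALR (augmenter of liver regeneration, gene Gfer) without Cre and are labelled WT with sham treatment; PT-KO mice were ALR flox/flox with a hemizygous Ggt1-Cre transgene, whose promoter is active in proximal tubule cells, and are labelled ALR knockdown. Ctrl+I/R and PT-KO+I/R mice had the same genotypes and underwent 22 min of bilateral renal ischemia and 24 h of reperfusion (I/R). The comparisons ask how this gene group differed after injury and between genotypes.

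The proximal tubule reclaims most filtered phosphate through sodium-coupled carriers in its brush border. Parathyroid hormone and FGF23 lower this uptake by withdrawing the carriers from the membrane, FGF23 through a receptor complex that needs Klotho. The same cells make calcitriol, the active form of vitamin D, with the enzyme encoded by Cyp27b1, while the enzyme encoded by Cyp24a1 breaks it down and Vdr is its nuclear receptor.

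The brush border carriers Slc34a1 and Slc34a3, Kl and Pth1r fell after I/R in PT-KO mice, as did Vdr and Slc9a3r1, whereas the widely expressed carriers Slc20a1 and Slc20a2 rose. In control mice Slc34a3, Kl and Vdr were also called lower and Slc20a1 and Slc20a2 higher, calls that rested on few libraries. Kl had a mean of 129 CPM (counts per 1000000) in PT-KO+I/R against 962 in PT-KO and 411 in Ctrl+I/R. Cyp27b1 took the other direction and had a mean of 46.2 CPM in PT-KO+I/R against 9.25 in Ctrl+I/R. CPM values here are scaled by TMM, which adjusts for library size and composition, and called means an adjusted p (Benjamini-Hochberg, over all genes) under 0.05 in the quasi-likelihood test of edgeR.

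**Figure D1:**
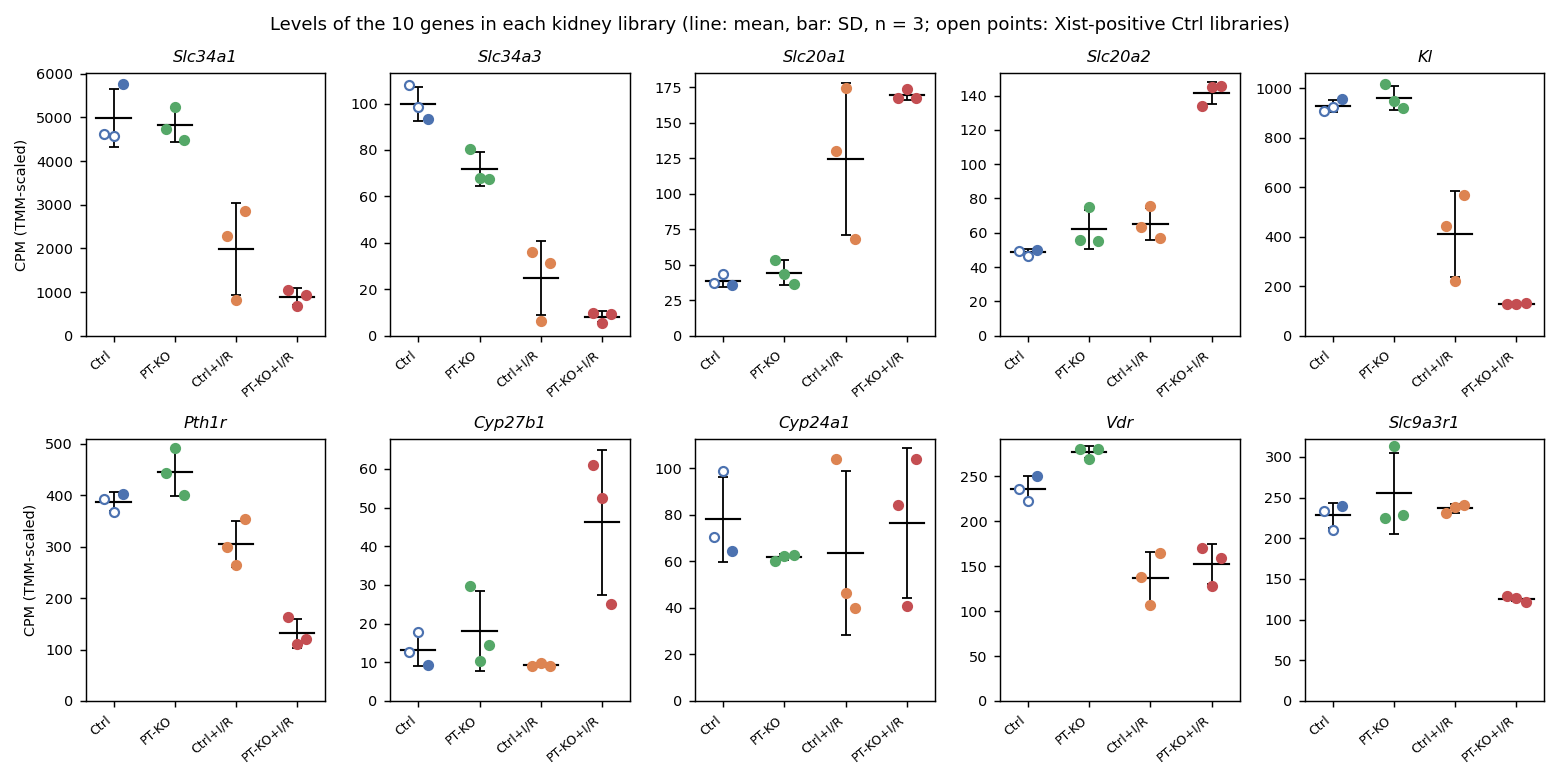
TMM-scaled CPM of the 10 genes in each of the 12 libraries, with the group mean as a line and the SD as a bar (n = 3), and with the Ctrl libraries that carry Xist as open points. Kl sits between 127 and 131 CPM in the 3 PT-KO+I/R libraries, below every library of the other groups, while Slc20a2 sits between 134 and 146 CPM there, above every other library.

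Totals ran from 12165089 to 23123693 counts per library, and pairs of libraries within a group differed with a chi-square per degree of freedom of at least 8.21, where counting error alone gives about 1. Ctrl libraries 1 and 2 carried 22402 and 19755 counts of the female transcript Xist, and no other library had more than 11, so sex and group are mixed in every comparison with Ctrl. These comparisons were fitted again with Ctrl library 3 alone, where no gene, in this group or among all genes tested, was called for I/R in control mice. Gfer itself was at 12.7, 11.4 and 14.4 CPM in Ctrl, 9.97, 17.1 and 15.03 CPM in PT-KO, 15.3, 20.0003 and 17.6 CPM in Ctrl+I/R and 21.6, 22.8 and 21.6 CPM in PT-KO+I/R, so it was not lower in the libraries labelled as knockout (adjusted p = 0.761 without and 0.0723 after I/R, edgeR). The loxP sites flank an inner exon, and counts of the whole gene also take reads of the exons outside them, so these counts do not check the deletion, and PT-KO means the libraries so labelled. Among markers of the cortex, 8 proximal tubule genes summed to 9430 to 10312 CPM in Ctrl and 9342 to 10465 in PT-KO, but to 3086 to 6557 in Ctrl+I/R and 1855 to 2185 in PT-KO+I/R. The injury markers Havcr1, Lcn2 and Krt20 summed to at most 7.28 CPM without I/R, to 552 to 2617 CPM in Ctrl+I/R and to 4800 to 6312 CPM in PT-KO+I/R. In whole cortex, fewer cells of a type and less RNA per cell cannot be told apart.

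Per kilobase of exon, Slc34a1 (chr13:55398187-55415592, plus strand) was the most abundant of the group in Ctrl at 1066.5 ± 143 CPM per kb (SD, n = 3). Pth1r at 133 ± 6.22, Slc9a3r1 at 118 ± 8.03 and Kl at 99.6 ± 2.63 CPM per kb came next. Slc34a3 at 42.4 ± 3.11 and Vdr at 41.8 ± 2.52 CPM per kb overlapped, above Cyp24a1 at 21.9 ± 5.17. Slc20a2 at 7.81 ± 0.291, Slc20a1 at 6.92 ± 0.711 and Cyp27b1 at 5.17 ± 1.68 CPM per kb were lowest, each overlapping its neighbour. With the longest transcript as the length, Kl and Slc9a3r1 changed places, as did Slc34a3 and Vdr. In PT-KO+I/R the order was another: Slc34a1 still led at 190 ± 41.6 CPM per kb, Kl at 13.8 ± 0.220 was next to lowest and Slc34a3 at 3.45 ± 1.03 was lowest, whereas Slc20a1 at 30.4 ± 0.641 stood above Vdr at 27.0 ± 3.91. By the longest transcript Kl was at 22.1 CPM per kb there, above Cyp24a1 at 21.5 and Cyp27b1 at 18.9, and Slc20a2 passed Vdr.

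The start regions of the group were read from the RefSeq promoter table of GRCm38.p6, which gives the 250 bases before and 50 bases after each start, and matched 8 of the 10 genes (all but Slc20a2 and Cyp24a1) with 11 windows. The 4 printed here are those of the brush border carriers, Kl and Cyp27b1, namely the 3 genes that fell most after I/R in PT-KO mice and the gene with the largest difference between injured kidneys. Capitals mark a match on either strand to any of 7 motifs, none of which contains another: the HNF1 motif GTTAAT, the nuclear receptor motif AGGTCA, the cAMP response element TGACGTCA, the AP-1 motif TGANTCA, the GC box GGGCGG, the TATA box TATAAA and the CCAAT box CCAAT.
Slc34a1, chr13:55399398-55399697, plus strand: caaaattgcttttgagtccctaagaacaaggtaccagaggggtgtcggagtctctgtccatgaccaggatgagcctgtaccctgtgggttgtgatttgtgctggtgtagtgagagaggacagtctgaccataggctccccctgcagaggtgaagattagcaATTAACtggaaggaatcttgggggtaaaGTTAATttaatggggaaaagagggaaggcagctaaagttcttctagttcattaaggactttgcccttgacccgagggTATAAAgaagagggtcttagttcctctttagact
Slc34a3, chr2:25234185-25234484, minus strand: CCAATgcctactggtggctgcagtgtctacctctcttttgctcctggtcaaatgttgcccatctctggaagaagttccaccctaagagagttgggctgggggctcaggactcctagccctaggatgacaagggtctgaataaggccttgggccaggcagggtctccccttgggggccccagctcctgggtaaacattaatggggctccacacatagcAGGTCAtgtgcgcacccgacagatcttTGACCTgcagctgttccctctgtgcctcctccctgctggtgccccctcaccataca
Kl, chr5:150952357-150952656, plus strand: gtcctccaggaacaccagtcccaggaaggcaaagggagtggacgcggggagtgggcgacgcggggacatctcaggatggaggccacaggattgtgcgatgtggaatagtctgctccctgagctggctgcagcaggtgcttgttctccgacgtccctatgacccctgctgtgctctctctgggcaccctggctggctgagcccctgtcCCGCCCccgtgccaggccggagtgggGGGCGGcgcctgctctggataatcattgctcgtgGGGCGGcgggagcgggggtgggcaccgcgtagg
Cyp27b1, chr10:127047996-127048295, plus strand: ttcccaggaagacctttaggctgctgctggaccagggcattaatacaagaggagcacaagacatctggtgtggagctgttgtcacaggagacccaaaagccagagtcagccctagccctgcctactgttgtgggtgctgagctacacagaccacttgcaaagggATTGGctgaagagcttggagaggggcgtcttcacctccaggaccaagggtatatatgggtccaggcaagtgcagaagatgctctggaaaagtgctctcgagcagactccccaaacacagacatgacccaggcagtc

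Counting from the RefSeq start, with no position 0, the Slc34a1 window held the HNF1 motif at -89 to -84 on the minus strand and at -61 to -56 on the plus strand, and TATAAA at 17 to 22. GTTAAT occurred in 7.1% of all 32851 windows of this length and in no other window of the group. The Slc34a3 window held AGGTCA at -33 to -28 and, on the other strand, at -6 to -1, a motif found in 16.3% of all windows. Kl had GGGCGG at 3 places from -43 to 23 (35.7% of all windows hold it), and Cyp27b1 had the CCAAT box at -86 to -82 (37.4%). The cAMP response element (1.79% of all windows) and the AP-1 motif (7.81%) were in none of the 11 windows. A match describes letters and is not a measured site.

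Slc34a1 encodes the main sodium-phosphate carrier of the proximal brush border. It was at 4625, 4578 and 5759 CPM in Ctrl libraries 1, 2 and 3 and at 4745, 5249 and 4476 CPM in PT-KO libraries 1, 2 and 4. After I/R it was at 2282, 809.5 and 2854 CPM in Ctrl+I/R libraries 1, 2 and 4 and at 1054, 673 and 932 CPM in PT-KO+I/R libraries 2, 3 and 4. Every injured kidney was below every uninjured one, and Ctrl+I/R library 2 lay within the range of the PT-KO+I/R libraries. The log2 fold change was -2.45 (SE 0.16, adjusted p = 9.0e-07) in PT-KO mice, 5.44-fold lower, and -1.32 (SE 0.44, adjusted p = 0.0698) in control mice, which was not called (-1.51, adjusted p = 0.303, with Ctrl library 3 alone). DESeq2 called it in control mice (adjusted p = 0.0035), and edgeR did when Ctrl+I/R library 2 (-0.94, adjusted p = 0.0309) was left out, or 4 (-1.68, adjusted p = 0.0395). With replicate numbers as blocks (replicate block) edgeR called it too (-1.75, adjusted p = 0.0342). PT-KO+I/R was lower than Ctrl+I/R by a log2 fold change of -1.17 (SE 0.42, adjusted p = 0.0496). That call held in only 1 of the 6 fits that leave out a library, the fit without Ctrl+I/R library 2 (-1.55, adjusted p = 7.3e-04).

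Slc34a3 (chr2:25228898-25234364, minus strand) encodes the other brush border phosphate carrier of the family. Its levels were 108, 98.6 and 93.4 CPM in Ctrl, 80.4, 67.9 and 67.6 CPM in PT-KO, 36.2, 6.42 and 31.4 CPM in Ctrl+I/R and 9.75, 5.34 and 9.29 CPM in PT-KO+I/R. The 4 groups overlapped only after I/R, where Ctrl+I/R library 2 fell among the PT-KO+I/R values. It was 8.85-fold lower in PT-KO+I/R than in PT-KO (log2 -3.19, SE 0.20, adjusted p = 5.8e-07), the largest decrease of the group. In control mice it fell 4.05-fold (log2 -2.005, SE 0.53, adjusted p = 0.0402), and with Ctrl library 3 as the only uninjured library the value was -1.89 (adjusted p = 0.296). Between injured kidneys the log2 fold change was -1.63 (SE 0.57, adjusted p = 0.0461), called again in 1 of 6 fits that leave out a library, the fit without Ctrl+I/R library 2 (-2.10, adjusted p = 4.6e-04).

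Slc20a1 (chr2:129198764-129211616, plus strand) and Slc20a2 (chr8:22476788-22569612, plus strand) encode sodium-phosphate carriers found in most cells. Slc20a1 was at 37.0, 43.1 and 35.7 CPM in Ctrl and 53.4, 43.6 and 36.1 CPM in PT-KO, against 130, 175 and 67.9 CPM in Ctrl+I/R and 168, 174 and 167 CPM in PT-KO+I/R. Injured and uninjured kidneys did not overlap in either genotype, and it rose by a log2 fold change of 1.69 (SE 0.31, adjusted p = 0.0157) in control and 1.93 (SE 0.13, adjusted p = 9.8e-07) in PT-KO mice. Without Ctrl libraries 1 and 2 the first of these was 1.82 (adjusted p = 0.250). Ctrl+I/R library 2, the lowest in Slc34a1, was the highest of its group in Slc20a1, and the injured genotypes did not differ past the threshold (log2 0.44, 95% interval -0.21 to 1.10, adjusted p = 0.226). Without Ctrl+I/R library 2 that value was 0.75 and passed (adjusted p = 0.0305).

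Slc20a2 was at 49.4, 46.4 and 49.7 CPM in Ctrl, 55.8, 74.8 and 55.03 CPM in PT-KO, 63.5, 75.4 and 56.8 CPM in Ctrl+I/R and 134, 145 and 146 CPM in PT-KO+I/R. The PT-KO+I/R libraries stood apart from the other 9, which lay within 46.4 to 75.4 CPM. Its log2 fold change was 1.19 (SE 0.12, adjusted p = 1.5e-05) for I/R in PT-KO mice and 1.11 (SE 0.12, adjusted p = 4.5e-04) between the injured genotypes. In control mice it was 0.43 (SE 0.12, adjusted p = 0.0446) and 0.41 with Ctrl library 3 alone (adjusted p = 0.342). Smim19 shares 95 exonic bases with it on the opposite strand at 140 to 422 counts per library, and the strand setting of the counts is not given in the sources used here.

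Slc9a3r1 (chr11:115163341-115181181, plus strand) encodes NHERF1, a scaffold that anchors the brush border carriers and couples to the parathyroid hormone receptor. It was at 234, 210.5 and 239.9 CPM in Ctrl and 231, 239 and 240.3 CPM in Ctrl+I/R, groups that overlapped (log2 0.060, adjusted p = 0.722, or 0.00067 and 0.999 with Ctrl library 3 alone). In PT-KO it was at 225, 313 and 228 CPM, and in PT-KO+I/R at 129, 126 and 122 CPM. It fell by a log2 fold change of -1.03 (SE 0.13, adjusted p = 5.7e-05) after I/R in PT-KO mice and was 1.88-fold lower than in the injured controls (log2 -0.92, SE 0.093, adjusted p = 3.8e-04).

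Kl (chr5:150952607-150993817, plus strand) encodes Klotho, which in kidney is made mainly in the distal tubule and also in the proximal tubule. It was at 908, 923 and 956 CPM in Ctrl and 1016, 949 and 920.3 CPM in PT-KO. After I/R it was at 443, 222 and 568 CPM in Ctrl+I/R and 128, 127 and 131 CPM in PT-KO+I/R, so the 3 PT-KO+I/R libraries were nearly equal while the Ctrl+I/R libraries spread 2.56-fold. The decrease was 7.46-fold in PT-KO mice (log2 -2.91, SE 0.093, adjusted p = 2.7e-08) and 2.26-fold in control mice (log2 -1.17, SE 0.32, adjusted p = 0.0427). The value in control mice was -1.19 with Ctrl library 3 alone (adjusted p = 0.294). PT-KO+I/R was 3.19-fold lower than Ctrl+I/R (log2 -1.68, SE 0.31, adjusted p = 0.0034), a call kept in each of the 6 fits that leave out a library. With the replicate block this value was -1.45 and did not pass (edgeR, adjusted p = 0.0542). Markers of the distal convoluted tubule (Slc12a3, Pvalb and Trpm6) summed to 958 to 1240 CPM in Ctrl, 833 to 874 in PT-KO, 286 to 485 in Ctrl+I/R and 256 to 309 in PT-KO+I/R. Between the injured groups 1 of these 3 markers was higher and 1 lower, and their part in the Kl result was not tested.

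Pth1r (chr9:110722085-110747145, minus strand) encodes the receptor through which parathyroid hormone acts on the tubule. Its levels were 393, 368 and 403 CPM in Ctrl, 443, 491 and 400.0 CPM in PT-KO, 300.3, 265 and 354 CPM in Ctrl+I/R and 164, 111 and 120.3 CPM in PT-KO+I/R. Ctrl+I/R lay just below Ctrl without passing the test (log2 -0.33, SE 0.15, adjusted p = 0.135, or -0.38 and 0.429 with Ctrl library 3 alone), and PT-KO+I/R lay below all other libraries. It fell 3.38-fold after I/R in PT-KO mice (log2 -1.77, SE 0.15, adjusted p = 4.2e-06). Between injured kidneys it was 2.32-fold lower in PT-KO+I/R (log2 -1.23, SE 0.18, adjusted p = 0.0015). With the replicate block this value was -1.12 and did not pass (edgeR, adjusted p = 0.0571).

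Cyp27b1 (chr10:127048250-127053006, plus strand) encodes the hydroxylase that makes calcitriol. It was at 12.8, 17.9 and 9.26 CPM in Ctrl, 29.8, 10.3 and 14.4 CPM in PT-KO, 9.07, 9.77 and 8.92 CPM in Ctrl+I/R and 61.0, 52.6 and 25.1 CPM in PT-KO+I/R. The Ctrl+I/R libraries were close together, and PT-KO+I/R lay above all of them, with the lowest PT-KO+I/R library below PT-KO library 1. PT-KO+I/R was 4.997-fold higher than Ctrl+I/R (log2 2.31, SE 0.30, adjusted p = 8.9e-04), the largest difference of the group between injured kidneys, and it was called in each of the 6 fits that leave out a library. Against PT-KO the log2 fold change was 1.34 (SE 0.39, adjusted p = 0.0120), lost in 1 of 6 such fits (without PT-KO library 4, adjusted p = 0.0510). Immune markers also differed between the injured groups. The 3 neutrophil markers were all called higher and summed to 46.5 to 70.9 CPM in PT-KO+I/R against 5.95 to 26.2 in Ctrl+I/R, and of 4 macrophage markers 1 was higher and 3 lower, with sums of 39.4 to 49.0 against 86.5 to 168 CPM. Their part in the Cyp27b1 result was not tested.

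Cyp24a1 (chr2:170482708-170497145, minus strand) encodes the enzyme that breaks calcitriol down. It was at 70.5, 99.0 and 64.6 CPM in Ctrl, 60.3, 62.5 and 62.9 CPM in PT-KO, 104, 46.6 and 39.97 CPM in Ctrl+I/R and 84.4, 40.8 and 104 CPM in PT-KO+I/R. Libraries of the injured groups spread over the same range, and no comparison was called. Its log2 fold change was 0.29 (95% interval -0.30 to 0.88, adjusted p = 0.350) in PT-KO mice after I/R and 0.25 (95% interval -0.74 to 1.24, adjusted p = 0.658) between injured kidneys, so differences of this size could not be told from the spread. Without PT-KO+I/R library 3 the value against PT-KO was 0.61 and passed (adjusted p = 0.0016). Pfdn4 shares 83 exonic bases with it on the opposite strand, at 201 to 417 counts per library.

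Vdr (chr15:97854425-97910630, minus strand) was at 236, 222 and 251 CPM in Ctrl, 280.7, 269 and 280.4 CPM in PT-KO, 138, 107 and 165 CPM in Ctrl+I/R and 170.3, 128 and 159.6 CPM in PT-KO+I/R. Injured kidneys were below uninjured ones in both genotypes, and the injured groups overlapped. It fell by a log2 fold change of -0.79 (SE 0.17, adjusted p = 0.0248) in control mice and -0.87 (SE 0.11, adjusted p = 7.9e-05) in PT-KO mice. With Ctrl library 3 alone the first value was -0.86 (adjusted p = 0.252). The injured genotypes differed by 0.15 (95% interval -0.27 to 0.57, adjusted p = 0.516), and with library totals in place of TMM that difference was -0.049.

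Taking the group as a whole, I/R in control mice was called for 5 of the 10 genes, with Slc20a1 and Slc20a2 higher and Slc34a3, Kl and Vdr lower, where the background was 19.4% of the 15567 genes tested (11.4% higher and 7.97% lower, or 15.1% and 4.92% with library totals in place of TMM). The median log2 fold change was -0.42 over the group and -0.011 over all genes tested. These calls rested on few libraries: 0, 0, 1 and 0 genes of the group were called without Ctrl library 1, 2, 3 and Ctrl+I/R library 1, where 379, 413, 2227 and 833 genes were called in all, in place of 3019. With Ctrl library 3 as the only uninjured library the log2 fold changes were -1.89 for Slc34a3, -1.19 for Kl and -0.86 for Vdr. They were 1.82 for Slc20a1 and 0.41 for Slc20a2. A lone library has no spread of its own, so that fit cannot decide on these calls. The counts were 5 and 6 without Ctrl+I/R library 2 and 4 (1635 and 4061 in all). A fit to all 12 libraries with sex as a covariate called 5 (2029 in all). The female libraries are all in Ctrl, so that fit too takes the Ctrl level from Ctrl library 3 alone. It is therefore no separate check on sex. Groups did not overlap for 7 of the 10 genes, where 43.7% of all tested genes did not.

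In PT-KO mice I/R was called for 9 of the 10 genes, all but Cyp24a1, against 65.5% of the 15155 genes tested (32.9% higher, 32.7% lower). Slc20a1, Slc20a2 and Cyp27b1 were higher and 6 genes were lower, with a median log2 fold change of -0.95 over the group and 0.011 over all genes. Leaving out any of the 6 libraries removed no call except that of Cyp27b1. Groups did not overlap for 8 of the 10 genes, where 71% of all tested genes did not.

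**Figure D2:**
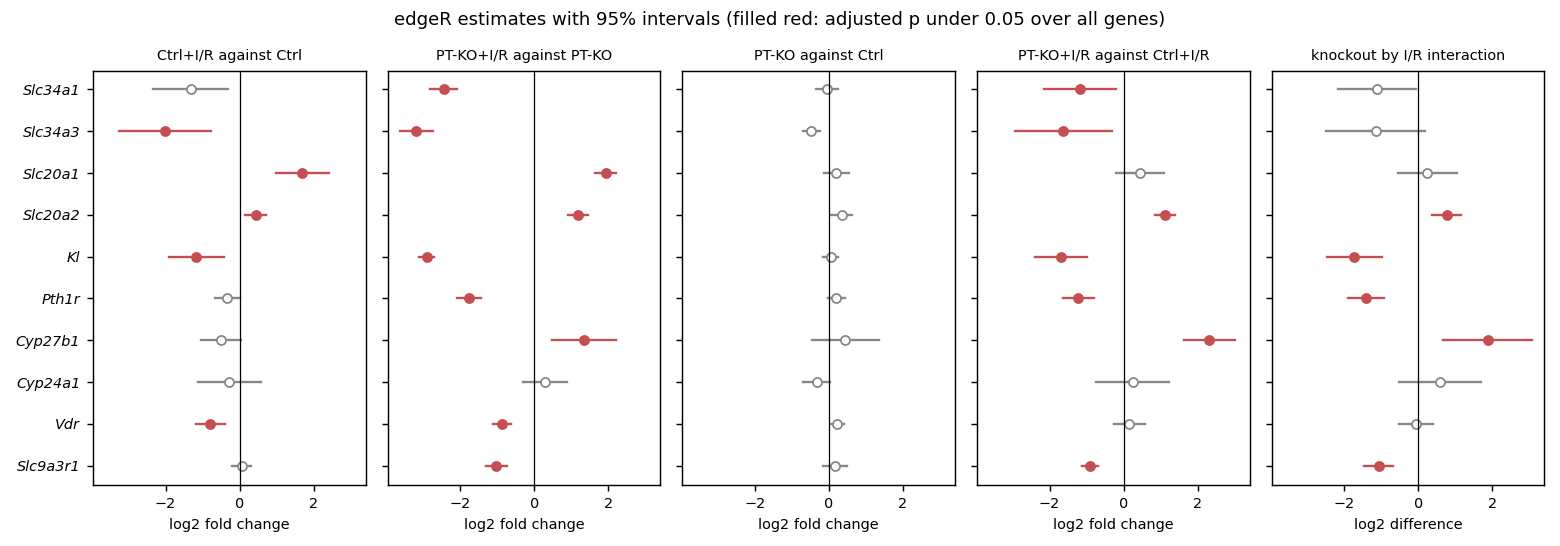
Log2 fold change of each gene in the 4 comparisons and the knockout by I/R interaction (a log2 difference), with 95% intervals from edgeR, filled red where the adjusted p over all genes was under 0.05. In PT-KO mice the intervals of 9 genes lie clear of 0, while no gene is filled for PT-KO against Ctrl.

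Without injury, PT-KO and Ctrl kidneys differed past the threshold in 0 of the 10 genes and in 0% of the 15291 tested by edgeR, although 2573 genes had an unadjusted p under 0.05 and DESeq2 called 440. Slc34a3, Slc20a2 and Vdr were the 3 genes of the group with an unadjusted p under 0.05. Slc34a3 was lower in all 3 PT-KO libraries than in any Ctrl library, at a mean of 71.9 ± 7.31 against 99.98 ± 7.34 CPM (log2 -0.48, SE 0.10, adjusted p = 0.183). Its adjusted p was 0.0116 with DESeq2, 0.0387 without the low-count filter and 0.0126 without Ctrl library 3, which leaves only female kidneys in Ctrl, and it was 0.814 with Ctrl library 3 alone. Slc20a2 was at 61.9 ± 11.2 against 48.5 ± 1.81 CPM (log2 0.35, adjusted p = 0.244, or 0.32 and 0.902 with Ctrl library 3 alone) and Vdr at 277 ± 6.69 against 236 ± 14.2 CPM (log2 0.23, adjusted p = 0.258, or 0.14 and 0.924). Groups did not overlap for 4 of the 10 genes, where 20.9% of all tested genes did not. For Kl the 95% interval of the log2 difference was -0.16 to 0.26, and for Slc34a1 it was -0.34 to 0.24.

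Between the injured genotypes 7 of the 10 genes were called, against 46.9% of 15281 genes tested (22.5% higher and 24.4% lower, or 12.9% and 33.2% with library totals). Slc20a2 and Cyp27b1 were higher in PT-KO+I/R, and Slc34a1, Slc34a3, Kl, Pth1r and Slc9a3r1 were lower. The group's median log2 fold change was -0.38, and that of all genes was -0.0049. Library totals in place of TMM shifted the median of all genes by -0.21 in this comparison, by 0.12 in Ctrl+I/R against Ctrl and by -0.12 in PT-KO against Ctrl. Groups did not overlap for 5 of the 10 genes, where 58.8% of all tested genes did not.

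The difference between the genotypes in their response to I/R was itself tested as an interaction over all 12 libraries and was called for 5 of the 10 genes, against 30.6% of 16168 genes tested (14.3% higher, 16.4% lower, or 9.84% and 18.5% with library totals). Kl at -1.72 (SE 0.34, adjusted p = 0.0032), Pth1r at -1.42 (SE 0.22, adjusted p = 7.8e-04) and Slc9a3r1 at -1.07 (SE 0.17, adjusted p = 0.0010) had a lower log2 response in PT-KO mice. Slc20a2 at 0.77 (SE 0.18, adjusted p = 0.0090) and Cyp27b1 at 1.87 (SE 0.55, adjusted p = 0.0237) had a higher one. The Cyp27b1 interaction did not pass without Ctrl library 2, Ctrl+I/R library 1, PT-KO library 4 or PT-KO+I/R library 2 or 3, where it was 1.61 to 1.85 (adjusted p = 0.0511 to 0.0605). For Slc34a1 the interaction was -1.11 (95% interval -2.16 to -0.063, adjusted p = 0.0996) and for Slc34a3 -1.15 (95% interval -2.49 to 0.19, adjusted p = 0.175), which did not pass. Without Ctrl+I/R library 2 both were called, at -1.50 (adjusted p = 0.0010) and -1.62 (adjusted p = 8.1e-04), and 7 of the 10 genes were, with 5509 of all genes in place of 4953. With Ctrl library 3 alone Kl, Pth1r and Slc9a3r1 remained called, whereas Slc20a2 (adjusted p = 0.0535) and Cyp27b1 (adjusted p = 0.195) did not pass.

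Because the proximal tubule markers moved with I/R, the counts of each gene were also set against the summed counts of the 8 markers in the same library. This ratio was chosen after the data had been seen, and Lrp2 supplied the largest part of the sum. Slc34a1 came to 46.4, 48.5 and 55.8% of the marker counts in Ctrl, 48.6, 50.2 and 47.9% in PT-KO, 50.8, 26.2 and 43.5% in Ctrl+I/R and 48.3, 36.3 and 47.0% in PT-KO+I/R. The injured and uninjured kidneys thus overlapped on this scale in both genotypes. Slc34a3 did not overlap in either: it was 0.906 to 1.08% in Ctrl against 0.208 to 0.805% in Ctrl+I/R, and 0.649 to 0.823% in PT-KO against 0.288 to 0.469% in PT-KO+I/R. Kl was 9.07 to 10.4% in PT-KO and 5.88 to 6.85% in PT-KO+I/R, and in control mice its ranges overlapped. In PT-KO mice Pth1r, Slc9a3r1 and Vdr turned the other way on this scale, with Pth1r at 4.28 to 4.69% in PT-KO and 5.98 to 7.4998% in PT-KO+I/R. In control mice Vdr turned, as did the values of Pth1r (3.90 to 3.94% in Ctrl and 5.39 to 8.57% in Ctrl+I/R), Cyp27b1 and Cyp24a1, which had not been called. Between injured kidneys the log2 difference of the ratio was -0.061 for Pth1r and -0.14 for Slc34a3, with overlapping groups, and -0.40 for Kl, whose groups did not overlap, while Slc34a1 at 0.17 and Slc9a3r1 at 0.26 turned, with overlapping groups. The markers did not move alike: mean Slc5a2 was 305 CPM in injured control and 282 CPM in injured PT-KO kidneys, while mean Gatm was 435 and 22.3 CPM, so the ratio depends on which markers are summed.

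**Figure D3:**
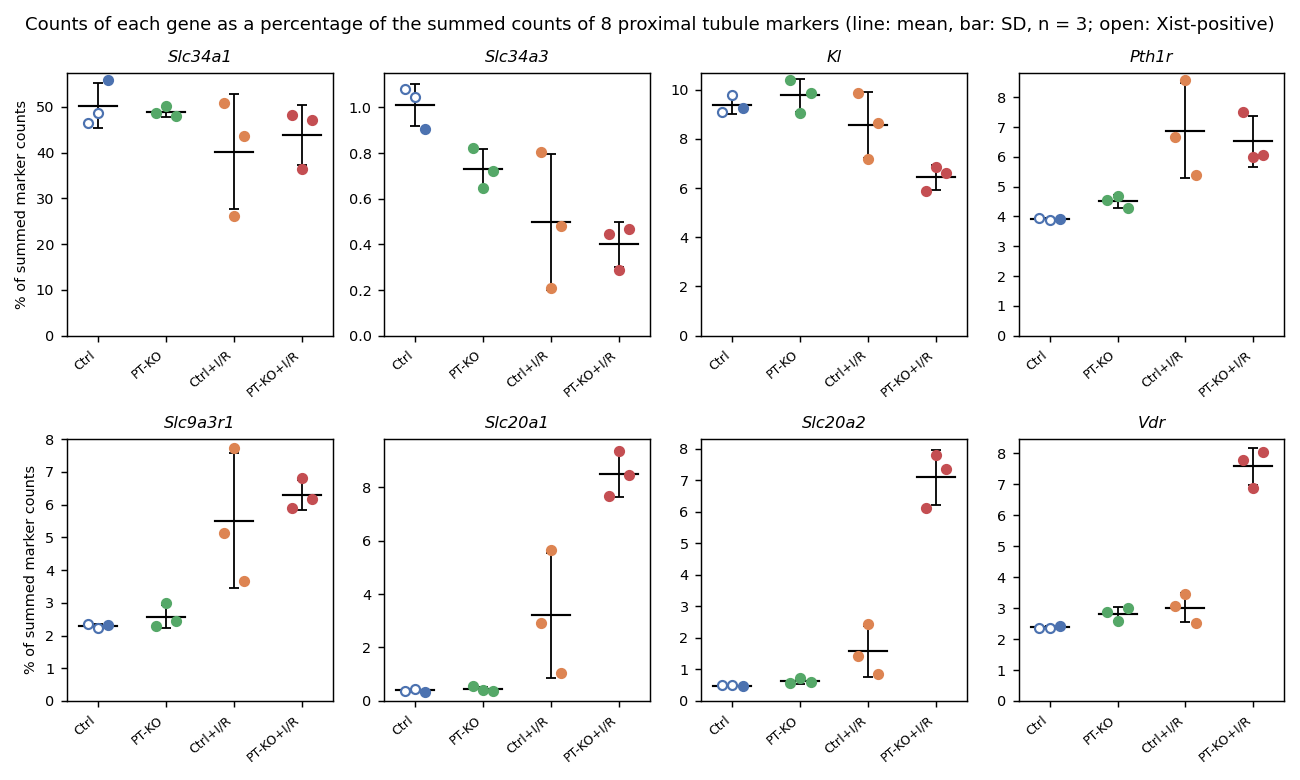
Counts of 8 of the genes as a percentage of the summed counts of 8 proximal tubule markers in the same library, with group mean and SD (n = 3). Slc34a1 lies between 26.2 and 55.8% with injured and uninjured kidneys mixed, whereas Slc20a1 reaches 7.67 to 9.37% in PT-KO+I/R against at most 0.547% without I/R. The marker sum fell from a mean of 9857 CPM in PT-KO to 2007 CPM in PT-KO+I/R, which by itself raises the ratio. In CPM Slc20a1 rose 3.82-fold in PT-KO mice.

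Within Ctrl+I/R most of the genes shared an order of the 3 libraries or had its reverse. Slc34a1, Kl, Pth1r and Vdr were highest in library 4 and lowest in library 2, and Slc34a3 was lowest in library 2 too. Slc20a1, Slc20a2 and Cyp27b1 had the reverse order, which was also that of Havcr1 at 2107, 786 and 381 CPM and Lcn2 at 456, 241 and 161 CPM in libraries 2, 1 and 4. The spread of Cyp27b1 over these libraries was only 1.10-fold. Cyp24a1 and Slc9a3r1 followed neither order. With 3 libraries this is a description.

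Over the 12 libraries, among 11232 genes that averaged 5 CPM or more, the genes whose log2 CPM was most like that of Slc34a1 included Atp5c1 (Pearson r = 0.996) and Upb1 (r = 0.994). Those most like Kl were Aqp11 (r = 0.996), Hgd and Cpeb3 (r = 0.994 for each), and those most like Pth1r were Csrp2, Zfand1 (r = 0.994 for each) and Tmem174 (r = 0.992). Cyp27b1 had lower values, with Gpr108 at 0.929, Gpr146 at 0.925 and D230025D16Rik at 0.896, and for Cyp24a1 no gene exceeded Cdk14 at 0.748. These libraries share group and injury, so the values describe the 12 libraries and are given with no test.

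The other genes of phosphate handling were counted as a list of 11, all tested. In control mice 1 was higher and 4 lower after I/R, in PT-KO mice 3 were higher and 7 lower, and between injured kidneys 3 were higher and 4 lower, where 19.4, 65.5 and 46.9% of all genes tested were called. Slc34a2, the phosphate carrier of gut and lung, was the gene that was higher in control mice: it was at 4.93, 5.51 and 4.60 CPM in Ctrl and 74.0, 127 and 18.2 CPM in Ctrl+I/R (log2 3.87, SE 0.64, adjusted p = 0.013). In PT-KO+I/R it was only at 13.9, 17.4 and 15.7 CPM, lower than in Ctrl+I/R (log2 -2.22, SE 0.57, adjusted p = 0.015), while still above the 2.94 to 4.80 CPM of PT-KO (log2 1.98, adjusted p = 1.3e-05). Pdzk1, another scaffold of the brush border carriers, was at 721, 580.4 and 1094 CPM in Ctrl+I/R and 194, 134 and 138 CPM in PT-KO+I/R (log2 -2.37, SE 0.27, adjusted p = 5.4e-04). Ezr, which links NHERF1 to the actin skeleton, went the other way, with 418, 529 and 477 CPM in Ctrl+I/R and 937, 1074 and 1180.3 CPM in PT-KO+I/R (log2 1.16, SE 0.15, adjusted p = 7.9e-04). Slc17a3, an anion carrier of the tubule, was also lower in PT-KO+I/R (log2 -1.29, adjusted p = 2.9e-04), and Ank, which exports pyrophosphate and is also named Ankh, was higher (log2 1.37, adjusted p = 0.0017).

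Of 12 other genes of FGF23, Klotho and parathyroid hormone signalling, 8 had enough counts to be tested. Fgf23, Klb, Phex and Pth, genes of bone, liver and parathyroid, were at or near 0 in all libraries. In control mice 0 were higher and 3 lower after I/R, in PT-KO mice 1 was higher and 6 lower, and between injured kidneys 1 was higher and 3 lower, of all genes 19.4, 65.5 and 46.9%. The FGF receptor Fgfr1, a partner of Klotho, was the gene that was higher, at 61.0, 67.1 and 49.3 CPM in Ctrl+I/R and 82.1, 104 and 94.1 CPM in PT-KO+I/R (log2 0.65, SE 0.14, adjusted p = 0.0064). The calcium-sensing receptor Casr, a gene of the thick ascending limb, went from 61.8 ± 2.26 CPM in PT-KO to 8.64 ± 1.21 CPM in PT-KO+I/R, and stood at 73.3 ± 12.7 CPM in Ctrl and 30.7 ± 19.9 CPM in Ctrl+I/R (log2 -2.85, SE 0.12, adjusted p = 7.1e-08 for PT-KO mice after I/R). All 3 thick ascending limb markers (Umod, Slc12a1 and Cldn16) fell in that comparison too, with sums of 4403 to 5165 CPM in PT-KO and 1911 to 2353 CPM in PT-KO+I/R and Slc12a1 at a mean of 1334 and 40.6 CPM, and their part in the Casr result was not tested. Fam20c, a kinase that acts on secreted FGF23, fell in both genotypes after I/R (log2 -0.63, adjusted p = 0.040 in control and -1.39, adjusted p = 1.1e-05 in PT-KO mice).

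The list of vitamin D uptake, activation and receptor partners held 10 other genes, all tested, with 0 higher and 2 lower after I/R in control mice, 3 higher and 5 lower in PT-KO mice, and 3 higher and 4 lower between injured kidneys, beside the same 19.4, 65.5 and 46.9% of all genes. Lrp2 and Cubn, the endocytic receptors that take up filtered vitamin D bound to its carrier protein, fell in both genotypes. Cubn was at 464.5, 405 and 716 CPM in Ctrl+I/R and 118, 132 and 136 CPM in PT-KO+I/R (log2 -2.04, SE 0.22, adjusted p = 4.7e-04). Their adaptor Dab2 was higher in PT-KO+I/R at 1309, 1358 and 1369 CPM than in Ctrl+I/R at 666, 651 and 553 CPM (log2 1.10, SE 0.13, adjusted p = 6.2e-04). The Vdr partners Rxra (log2 0.70, adjusted p = 0.0018) and Rxrb (log2 0.43, adjusted p = 0.0084) were higher there as well, by less.

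**Figure D4:**
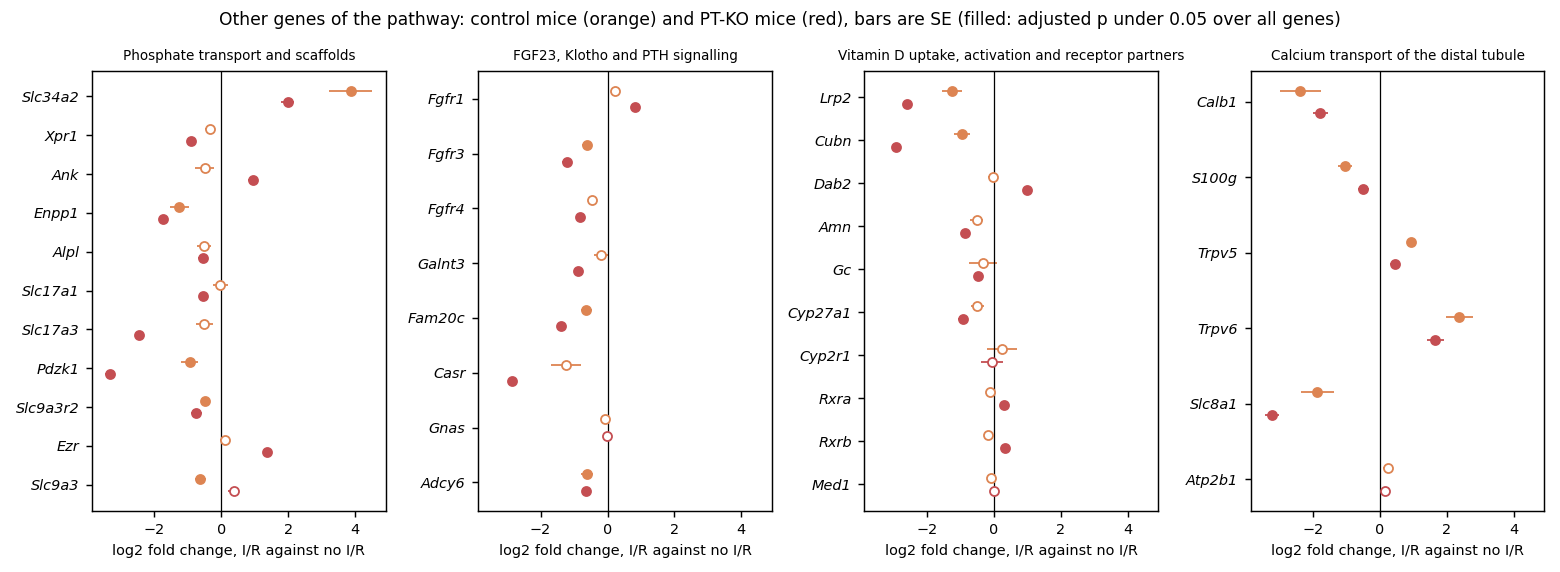
Log2 fold change after I/R of the tested genes of the 4 pathway lists, in control mice (orange) and PT-KO mice (red), with SE bars and filled points where the adjusted p over all genes was under 0.05. Slc34a2 lies at 3.87 in control and 1.98 in PT-KO mice, and Pdzk1, Casr and Cubn lie at -3.32, -2.85 and -2.94 in PT-KO mice.

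Distal calcium transport genes known to respond to vitamin D formed a list of 6. After I/R 2 were higher and 3 lower in control mice, where 19.4% of all genes were called, and in PT-KO mice, where 65.5% were, 2 were higher and 3 lower too. The calcium channels Trpv5 and Trpv6 rose in both genotypes, Trpv6 from 1.41 ± 0.158 to 7.22 ± 3.76 CPM in control mice (log2 2.36, adjusted p = 0.014) and from 1.44 ± 0.313 to 4.52 ± 0.0886 CPM in PT-KO mice (log2 1.65, adjusted p = 2.6e-04). Calb1 and S100g, which buffer calcium in the distal cell, and the exchanger Slc8a1 fell in both, Calb1 from 619.7 ± 75.8 to 118 ± 80.8 CPM in control mice (log2 -2.38, adjusted p = 0.038). Between injured kidneys 0 of the 6 were higher and 2, Trpv5 and Slc8a1, were lower in PT-KO+I/R, against 46.9% of all genes called. For the interaction 0 of the 6 were called, against 30.6% of all genes.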

How the data were processed

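The authors extracted RNA from kidney cortex, sequenced it on an Illumina HiSeq and deposited 1 table of raw counts per gene (55487 Ensembl identifiers, 12 libraries), neither normalized nor filtered. The submitters' processing notes name HISAT2 2.0.4 and the mm10 build; the count program, annotation and strand setting are not given in the sources used here. Symbols, coordinates and exon lengths came from GENCODE M21.

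Genes were filtered with filterByExpr, scaled by TMM and fitted in edgeR 4.0.16 (quasi-likelihood test, R 4.3.3), with 6 libraries per comparison and 12 for the interaction. P-values were adjusted over all genes (Benjamini-Hochberg) and called under 0.05. With 3 libraries against 3 the smallest exact permutation p is 0.1, so none is given. The labels do not say more of the replicates than their numbers, so p-values measure the spread between these libraries. Ctrl library 3 was assigned to Ctrl by its column name alone, because the Ctrl titles are numbered 1, 2 and 4. A library was called female above 1000 Xist counts.

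All 10 genes are named, the other pathway genes are counted in full and named as examples, and the 3 genes most like 5 of the members are given, except 1 that is not reported here. Members and lists were chosen with earlier results of these data known. Alternatives were DESeq2 1.42.0, library totals, median-of-ratios factors, no filter or 10 counts in every library, all 12 libraries, replicate block, sex, and leaving out each library. Scripts were tested on simulated data.

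Across groups, 12 pairs of libraries share a number, and the correlation of their residuals had a median of -0.047 (range -0.31 to 0.30), so the numbers were not taken as pairs.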

Additional observations from a re-analysis of the deposited data

Results flagged for a closer look

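For 5 of the 10 genes the response to I/R differed between the genotypes by the interaction test of edgeR over 12 libraries, which called 30.6% of all 16168 genes tested. The log2 difference was -1.72 for Kl, -1.42 for Pth1r and -1.07 for Slc9a3r1, each called in all 12 fits that leave out a library. It was 0.77 for Slc20a2, called in all 12 too, and 1.87 for Cyp27b1, called in 7 of 12. With the replicate block neither passed, at 0.70 for Slc20a2 (adjusted p = 0.0534) and 1.88 for Cyp27b1 (adjusted p = 0.0713). In Pth1r and Slc9a3r1 the change in control mice did not pass the test on its own, at -0.33 and 0.060.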

How the results depend on the processing

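Of 820 alternative values for these genes and groups, 703 were kept, 52 no longer passed, 18 newly passed, 24 reversed and 23 moved. Kept means the same direction and side of the threshold. The marker ratio has no test, so there kept means within the replicate spread of the main value. The 23 were on that ratio and lay beyond this spread. Reversals on it were counted for called values only. Ctrl+I/R against Ctrl called 0 of the 10 genes with Ctrl library 3 as the only Ctrl library and 0 to 6 when each library was left out (0 and 379 to 4061 of all genes). There the lone library is assumed to vary like the other group. PT-KO against Ctrl called 1 with DESeq2, 1 without the low-count filter, 1 with the replicate block (Slc34a3 each time; 440, 388 and 1378 genes in all) and 0 to 1 when each library was left out (0 to 1930 in all). In PT-KO mice after I/R the replicate block called all 10 (8437 of all genes in place of 9929), with Cyp24a1 at 0.58 (adjusted p = 0.0051). It called 4 genes between injured kidneys, where 1683 genes in all were called in place of 7169, Cyp24a1 among them at 1.12 (adjusted p = 0.0317), and 3 in the interaction, as did the interaction with Ctrl library 3 alone (3215 and 2539 of all genes in place of 4953). With the block, Kl (-1.45, adjusted p = 0.0542) and Pth1r (-1.12, adjusted p = 0.0571) no longer passed between injured kidneys. Neither did Slc34a1 (-0.62, adjusted p = 0.457) nor Slc34a3 (-0.61, adjusted p = 0.485). The cause of these differences was not tested.

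The reversals were of values that had not been called, except on the scale of the marker ratio. With Ctrl library 3 alone, Ctrl+I/R against Ctrl was 0.0020 for Cyp24a1 and 0.019 for Cyp27b1, and the Vdr interaction was 0.013. With sex as a covariate the Vdr interaction was 0.019 and Slc9a3r1 in Ctrl+I/R against Ctrl was -0.019. Library totals gave -0.073 for Kl in PT-KO against Ctrl and -0.049 for Vdr between injured kidneys. The replicate block gave 0.11 for Slc34a1 in PT-KO against Ctrl and 0.071 for the Vdr interaction. Leaving out a library gave -0.035 and -0.0019 for Cyp24a1 without PT-KO+I/R library 4 (against Ctrl+I/R and PT-KO), up to 0.80 and 0.61 without others. In PT-KO against Ctrl it gave -0.11 for Cyp27b1 without PT-KO library 1 (up to 0.74), 0.067 for Slc34a1 without Ctrl library 3 (down to -0.11) and -0.0047 for Slc9a3r1 without PT-KO library 2 (up to 0.25). It gave -0.0071 for Vdr between injured kidneys without Ctrl+I/R library 2 (up to 0.31). In the interaction it gave -0.051 for Slc20a1 (up to 0.56) and 0.086 for Vdr (down to -0.23) without Ctrl+I/R library 4, and 0.040 for Vdr without PT-KO+I/R library 3. Relative to the proximal tubule markers, values were 0.53 for Pth1r, 1.29 for Slc9a3r1 and 1.43 for Vdr in PT-KO mice after I/R, 0.32 for Vdr in control mice, and 0.17 for Slc34a1 and 0.26 for Slc9a3r1 between injured kidneys. In control mice 3 values that had not been called also turned on that scale, to 0.79 for Pth1r, 0.67 for Cyp27b1 and 0.73 for Cyp24a1, and are counted above among the 23. At 3 kidneys a group the number of mice limits these values more than depth does.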
